A study of Caenorhabditis elegans with 2 samples.

Results

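The weaker NHR-85 peaks found in both replicates were the intervals of the pooled ce11 list that overlapped no interval of the deposited IDR-thresholded list and overlapped at least 1 interval in the list of each replicate, with 1 bp counting as overlap. They numbered 3126 of the 8389 pooled intervals (37.3%) and are called the weaker shared peaks here. The rest of the pooled list comprised 2738 intervals that overlapped IDR-thresholded peaks and 2525 others. Of those others, 754 had a partner in replicate 1 only, 1665 in replicate 2 only and 106 in neither. The comparison was with the 2404 IDR-thresholded intervals. Because the weaker shared peaks were chosen by the measured peak lists, their signal, width and rank describe the choice and were not tested. Their position and sequence were not used in the choice.

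The data came from chromatin immunoprecipitation and sequencing (ChIP-seq) of whole Caenorhabditis elegans hermaphrodites in the first larval stage (L1). Strain OP539, unc-119(tm4063) III; wgIs539, carried a stable transgene for NHR-85 with GFP-FLAG at its C-terminus, in an unc-119 mutant background, and sonicated chromatin was recovered with an anti-GFP antibody. Larvae had been synchronized by starvation after bleaching and were taken 6 h post synchronization, in 1 group of 2 biological replicates. Both replicates were called against the same control alignment, so their lists are not independent in that respect, and no untagged strain or other GFP fusion was analysed here.

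NHR-85 is a nuclear hormone receptor, the worm homologue of the mammalian Rev-Erb receptors, and takes part in the timing of larval development. Receptors of this family bind short DNA elements built around the hexamer AGGTCA, alone or repeated. The irreproducible discovery rate (IDR) ranks peaks in replicate lists and keeps those whose ranks are reproducible, so a peak below its threshold can still be present in every replicate.

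Sequence within 50 bp of the pooled summit is given for 6 of the weaker shared peaks, read on the plus strand of WBcel235 (ce11) from the RefSeq copy of the assembly. The tRNA, exon and intron windows belong to the strongest weaker shared peak in a promoter, in a coding exon and in an intron. The last 3 are the strongest whose window held the receptor hexamer AGGTCA (R09A8.5), the E-box CACGTG (near F41C3.2) and the repeat GAGAGAG (Y38C1AA.1), and were chosen after their values were seen. Capitals mark these matches on either strand, and in the window near F41C3.2 also a match to the GATA element, TGATAA on the opposite strand.
tRNA gene WBGene00014275 start, chrX:14063988-14064088: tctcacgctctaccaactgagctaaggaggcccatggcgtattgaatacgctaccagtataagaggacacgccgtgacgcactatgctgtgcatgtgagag
hsp-1 coding exon, chrIV:17280528-17280628: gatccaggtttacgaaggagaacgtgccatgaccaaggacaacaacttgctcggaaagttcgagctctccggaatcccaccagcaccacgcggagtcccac
toh-1 intron, chrIII:3807731-3807831: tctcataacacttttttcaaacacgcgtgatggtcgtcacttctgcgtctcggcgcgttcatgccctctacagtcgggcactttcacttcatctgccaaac
R09A8.5 promoter, chrX:12641132-12641232: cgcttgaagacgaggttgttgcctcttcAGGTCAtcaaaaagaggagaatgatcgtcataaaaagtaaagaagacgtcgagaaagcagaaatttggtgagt
intergenic near F41C3.2, chrII:4747138-4747238: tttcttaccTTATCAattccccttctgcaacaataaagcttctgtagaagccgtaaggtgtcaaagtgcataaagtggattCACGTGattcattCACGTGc
Y38C1AA.1 promoter, chrIV:210717-210817: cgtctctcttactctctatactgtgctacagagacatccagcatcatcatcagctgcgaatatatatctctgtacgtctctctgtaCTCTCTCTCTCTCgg

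The pooled signal of the weaker shared peaks ran between 40.6 and 97.161, with a median of 60.3, in the peak caller's own units. In the IDR-thresholded peaks it ran between 97.174 and 2228, with a median of 162, so the ranges did not overlap. Just inside the boundary lay the tRNA peak on X with 97.161, a peak at F36D4.5 on V with 97.138 and one upstream of the tRNA gene WBGene00014324 on IV with 97.126. Just outside it lay IDR-thresholded peaks at gly-6 with 97.174, B0361.11 with 97.177 and sao-1 with 97.184. Nearly all weaker shared peaks (99.97%) were 430 bp wide, the width shared by 85.5% of the IDR-thresholded peaks. The 3 weakest lay upstream of syd-2, at the start of nhr-98 and in an intron of F16A11.1, all with a pooled signal between 40.6 and 40.72. The other 2525 pooled peaks had a median signal of 44.8.

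In replicate 1 the partners of the weaker shared peaks had signals of 25.02 to 66.8, with a median of 33.1. In replicate 2 they had signals of 15.8 to 68.8, with a median of 28.1. The median log2 ratio of replicate 1 to replicate 2 was 0.30 in the weaker shared peaks and 0.01 in the IDR-thresholded peaks. A weaker shared peak had to be listed in both replicates, and the lowest listed signals were 25.02 in replicate 1 and 15.8 in replicate 2. The unequal floors of the lists bear on this ratio, which is not read as a replicate difference and was not tested. Across the 3126 weaker shared peaks the log2 signals of the replicates correlated with Pearson's r = 0.357 and Spearman's rho = 0.371. Across 2403 IDR-thresholded peaks with both partners r was 0.892 and rho 0.838. These are correlations across peaks of the same 2 libraries, and the choice of the weaker shared peaks restricts their range of signal. The replicate summits of a weaker shared peak lay a median of 45 bp apart, against 18 bp for an IDR-thresholded peak. Among the weaker shared peaks 474 overlapped another, and 474 had a replicate partner that was also the partner of another. Of all 3126, 5 had a partner that also overlapped an IDR-thresholded interval.

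**Figure D1:**
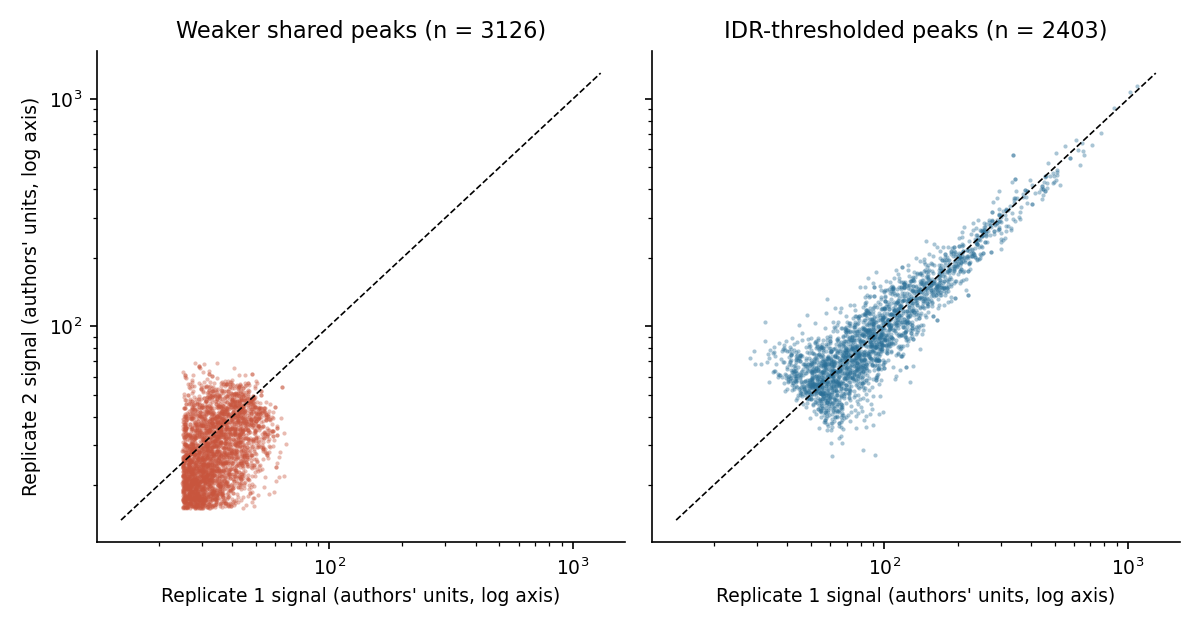
Signal of each peak in replicate 1 (x) and replicate 2 (y), in the peak caller's units on log axes, with the line of equality dashed. The weaker shared peaks (left) form a compact cloud cut off at 25.02 in replicate 1 and 15.8 in replicate 2, and the IDR-thresholded peaks (right) follow the line up to the strongest signals.

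Most weaker shared peaks lay at promoters, but less often than IDR-thresholded peaks, and they reached coding exons, which IDR-thresholded peaks almost never did. The promoter of a gene was taken as 1000 bp before and 200 bp after each of its transcript starts, for genes of every type, and took precedence over the other classes. Promoters held 1799 weaker shared summits (57.5%) and 1649 IDR-thresholded summits (68.6%), a difference of -11.04 percentage points (95% Newcombe interval -13.6 to -8.49, adjusted p = 1.43e-16, Fisher's exact test). Coding exons held 238 weaker shared summits (7.61%) and 10 IDR-thresholded summits (0.416%), a ratio of 18.3 and a difference of 7.20 points (interval 6.25 to 8.20, adjusted p = 1.16e-46, Fisher's exact test). Of genome positions taken every 1000 bp, 38.6% lay in promoters and 17.0% in coding exons. The weaker shared peaks stood above the genome share at promoters and below it in coding exons. The p-values are from two-sided Fisher's exact tests with Benjamini-Hochberg adjustment over 7 classes. They count peaks, which are not independent of each other, and 1 group of 2 replicates allowed no test over samples.

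The 3′ UTR class held 64 weaker shared summits (2.05%) and 9 IDR-thresholded summits (0.374%, adjusted p = 3.2e-08 by Fisher's exact test), beside 2.05% of genome positions. Introns held 443 weaker shared summits (14.2%) and 282 IDR-thresholded summits (11.7%, adjusted p = 0.014, Fisher's exact test), beside 24.3% of genome positions. The intron difference of 2.44 points lost its call when the stronger 1563 weaker shared peaks alone were used (0.490 points, adjusted p = 0.761) and against the weaker 1202 IDR-thresholded peaks (2.27 points, adjusted p = 0.0928, Fisher's exact tests). Intergenic shares were 17.8% and 18.4%, with a difference of -0.568 points (interval -2.63 to 1.47). The 5′ UTR class (14 and 5 summits) and the non-coding exon class (11 and 7 summits) did not pass the test either. Fisher's exact tests of the same classes set the weaker shared peaks apart from the other 2525 pooled peaks in 3 classes. Promoter shares were 57.5% and 47.8% (adjusted p = 2.06e-12), coding exon shares 7.61% and 12.8% (adjusted p = 3.45e-10) and intron shares 14.2% and 19.5% (adjusted p = 2.22e-07), all by Fisher's exact test. The other pooled peaks were weaker, with a median signal of 44.8 against 60.3. Weaker shared peaks with signals of 40.6 to 50.4 had shares of 46.3%, 15.2% and 17.6% in these classes. The part of signal in the differences was not tested.

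Placing the summits by replicate gave close values. With replicate 1 summits, 57.7% of weaker shared peaks and 68.7% of IDR-thresholded peaks lay in promoters, and 7.45% and 0.333% in coding exons. With replicate 2 summits, the promoter shares were 57.9% and 68.8%, and the coding exon shares 7.20% and 0.499%.

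**Figure D2:**
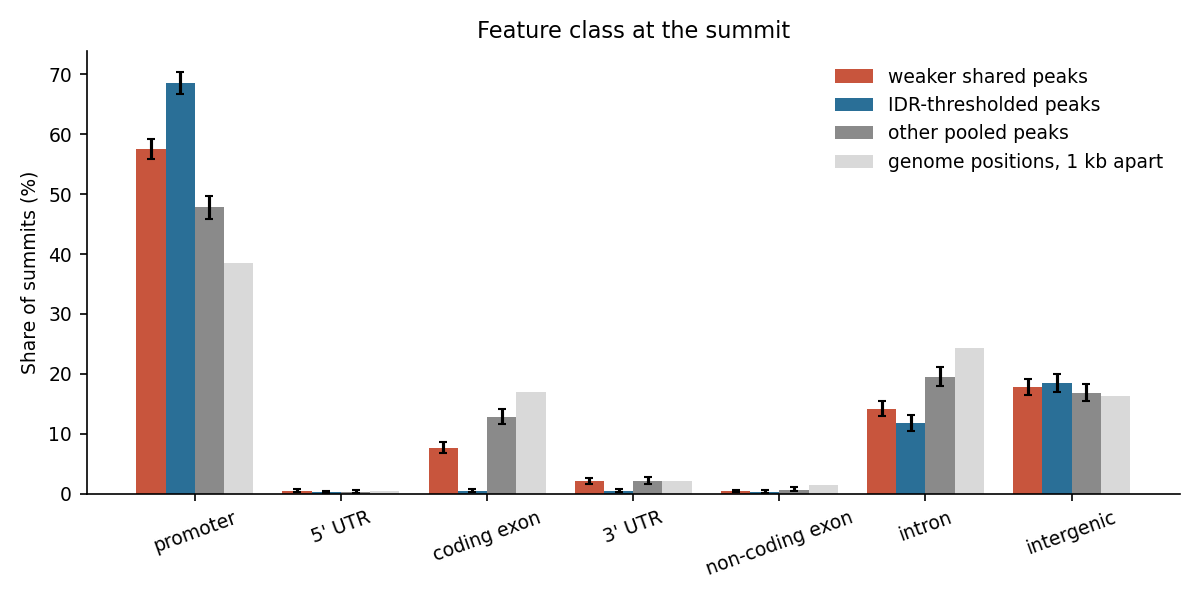
Share of summits (%) in each feature class for the weaker shared peaks, the IDR-thresholded peaks and the other pooled peaks, with 95% Wilson intervals, and for genome positions 1 kb apart. Coding exons hold 7.61% of weaker shared and 0.416% of IDR-thresholded summits, while the intergenic bars of these sets overlap in their intervals.

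The weaker shared peaks were not alike in this respect. In 4 bins of rising pooled signal, the promoter share was 46.3%, 55.2%, 60.1% and 68.7%, and in the weaker and stronger 1202 IDR-thresholded peaks it was 67.97% and 69.2%. The coding exon share over the same 6 bins was 15.2%, 8.19%, 5.25%, 1.79%, 0.499% and 0.333%. In the strongest bin of weaker shared peaks the 95% Wilson interval of the promoter share, 65.3% to 71.8%, covered both IDR-thresholded values. Its coding exon share, 1.79%, was above the 0.499% of the weaker IDR-thresholded bin. The intervals of these shares, 1.07% to 2.98% and 0.229% to 1.08%, barely met. With the stronger 1563 weaker shared peaks only, the promoter difference was -4.23 points (adjusted p = 0.0134) and the coding exon difference 3.10 points (adjusted p = 3.7e-13, Fisher's exact tests). Since signal ordered these bins, they are a description and carry no test of trend.

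**Figure D3:**
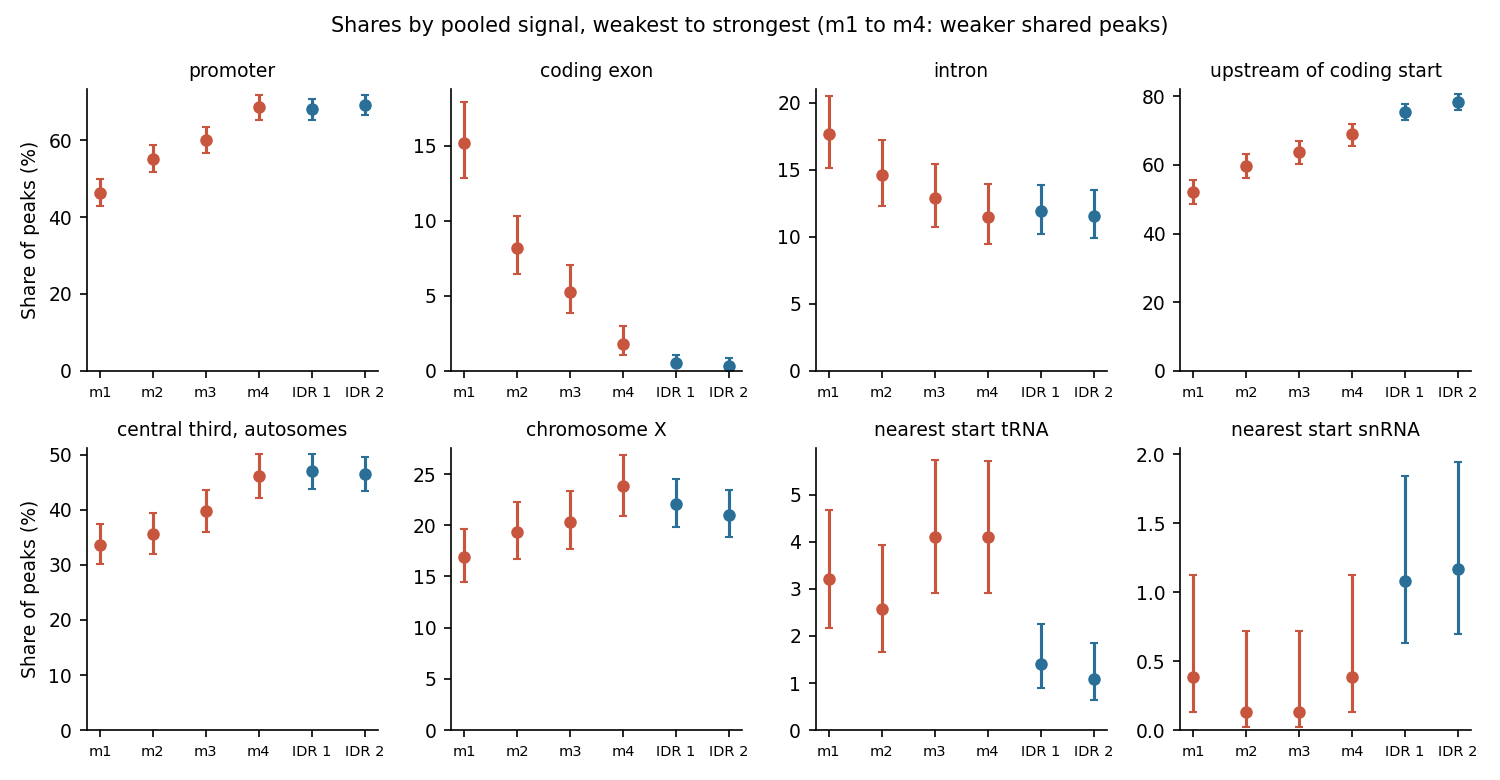
Share of peaks (%, with 95% Wilson intervals) in 6 bins of rising pooled signal, m1 to m4 being the weaker shared peaks and IDR 1 and IDR 2 the weaker and stronger 1202 IDR-thresholded peaks. From m1 to m4 the promoter, upstream and central shares are successively higher and the coding exon share successively lower, while the tRNA share is above 2.5% in every weaker shared bin and below 1.5% in both IDR-thresholded bins.

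Weaker shared peaks also lay less often upstream of the nearest protein-coding start. The upstream share was 61.1% for weaker shared peaks and 76.9% for IDR-thresholded peaks, a difference of -15.8 points (interval -18.2 to -13.4, p = 2.73e-36, Fisher's exact test). It was 52.6% for the other pooled peaks and 43.9% of genome positions. The median distance to that start was 908.5 bp in weaker shared peaks and 662.5 bp in IDR-thresholded peaks. Among promoter summits, 13.3% of weaker shared and 20.6% of IDR-thresholded ones lay in promoters of coding genes on both strands, and 25.2% and 19.8% in promoters of non-coding genes only.

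The 238 weaker shared peaks in coding exons lay in 228 host genes with a median length of 4007.5 bp, against 2027 bp for all 19973 coding genes. Their median position was 61.5% of the way along the host gene. Of the 228 hosts, 43 (18.9%) also had an IDR-thresholded summit in their promoter, as had 3 of the 10 hosts of exonic IDR-thresholded peaks and 8.09% of all coding genes. The strongest exonic peak lay in hsp-1, a cytosolic HSP70 chaperone gene on IV, with signals of 32.1 in replicate 1 and 63.2 in replicate 2. The next was in algn-12 on V, with 54.9 and 41.2, followed by nuc-1 on X, the gene of a nuclease that clears DNA of dying cells, with 42.4 and 49.6. In hsp-1 the replicates were furthest apart of these 3 genes, with replicate 2 the higher. Intron peaks numbered 443 in 357 host genes, led by one in toh-1 on III, a gene of the astacin metalloprotease family, with 53.0 in replicate 1 and 35.8 in replicate 2. Of these 357 hosts, 76 (21.3%) had an IDR-thresholded summit in their promoter, as did 80 of 213 hosts (37.6%) of intronic IDR-thresholded peaks. The strongest 3′ UTR peak lay in ftt-2, which encodes a 14-3-3 protein, with 51.3 and 41.04 in the replicates, and the strongest 5′ UTR peak in unc-62, a homeobox gene of the Meis family, with 42.4 and 42.4.

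Some genes collected several weaker shared peaks. In all, 80 of the 2181 coding genes with any weaker shared peak in the promoter or body had 3 or more. H28G03.2 on X had 7, with no IDR-thresholded peak. The giant nuclear anchorage gene anc-1 had 7 beside 1 IDR-thresholded peak, 4 of the 7 in introns. The TFEB homologue hlh-30 on IV, a regulator of autophagy and the starvation response, had 7 beside 6 IDR-thresholded peaks. T28B11.1 on V had 6 beside 5, and unc-62 had 6 beside 2. These genes span 10473 to 41060 bp, so that their length exceeded the median of coding genes in each case. Overlapping peaks were each counted, so the counts need not be separate sites. The 2 coding exon peaks of T28B11.1 overlapped and had the same replicate signals, 32.3 and 24.4.

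No chromosome differed in its share between the weaker shared peaks and the IDR-thresholded peaks past the adjusted threshold. Chromosome I held 16.03% of weaker shared and 13.5% of IDR-thresholded peaks (adjusted p = 0.058 over 6 chromosomes, Fisher's exact test). Chromosome X held 20.1% and 21.5%, a difference of -1.46 points (interval -3.63 to 0.693, adjusted p = 0.438, Fisher's exact test), with 13.7% of the coding genes and 17.7% of the genome length. Against the other pooled peaks, X was the more frequent in the weaker shared set, with 20.1% and 15.7% (difference 4.41 points, adjusted p = 0.000114, Fisher's exact test). Over the bins of rising signal the X share of weaker shared peaks was 16.9%, 19.3%, 20.4% and 23.8%. The part of signal in that difference was not tested. Per megabase the weaker shared peaks numbered 36.3 on III, 35.4 on X, 33.2 on I, 32.6 on II, 28.0 on IV and 24.3 on V. The same rule applied within the ce10 lists gave 11343 peaks, with signals down to 24.1, and X shares of 16.7% against 21.8% in the ce10 IDR-thresholded list (adjusted p = 1.01e-10, Fisher's exact test). The ce10 pooled list held 29989 intervals, so its set reached far weaker peaks than the ce11 set.

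Within the autosomes, weaker shared peaks lay more towards the arms than IDR-thresholded peaks. The central of 3 equal parts held 38.6% of autosomal weaker shared peaks and 46.7% of IDR-thresholded peaks, a difference of -8.08 points (interval -11.025 to -5.13, p = 8.94e-08, Fisher's exact test). It held 34.6% of the other pooled peaks and 38.1% of autosomal coding genes. The weaker shared set was lower on each autosome, with 36.1% to 44.7% against 41.3% to 56.1%. On X it was the higher, with 39.5% against 33.4%, which was not tested. With the stronger 1563 weaker shared peaks only, the autosomal difference was -3.86 points (p = 0.0354, Fisher's exact test).

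The gene type that stood out in the weaker shared peaks was the tRNA gene. The nearest start of any type was that of a tRNA gene for 109 weaker shared peaks (3.49%) and 30 IDR-thresholded peaks (1.25%), a difference of 2.24 points (interval 1.45 to 3.03, adjusted p = 7.68e-07 over 10 types, Fisher's exact test), beside 0.810% of genome positions. Counted by gene, 127 of 612 annotated tRNA genes (20.8%) had a weaker shared summit in the promoter and 41 (6.70%) an IDR-thresholded one. No tRNA gene had both, but a weaker shared peak could not overlap an IDR-thresholded interval, so nothing is read from that absence. The tRNA share held over the range of signal, with 3.20%, 2.56%, 4.10% and 4.09% in the 4 bins. The 109 peaks lay a median of 44 bp from the tRNA start, and 51 of them were on X. All 6 chromosomes had such genes, with 61 of 276 on X (22.1%) and 15.2% to 24.6% of the tRNA genes on each autosome.

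The strongest weaker shared peak lay 20 bp upstream of the tRNA gene WBGene00014275 on X, with 52.3 in replicate 1 and 43.6 in replicate 2. The next of the tRNA peaks lay 861 bp upstream of WBGene00014324 on IV, with 49.7 and 54.5, and the third was 26 bp upstream of WBGene00014520 on X, with 56.995 and 38.9. Replicate 1 was the higher at both X-linked genes and replicate 2 at the gene on IV. Many tRNA genes are near-identical copies. At least 95% of the 31-base words around the summit occurred once in the genome for 64 of the 109 tRNA peaks (58.7%), against 94.9% of all weaker shared peaks, and for 24 of the 30 IDR-thresholded tRNA peaks. Limited to peaks above that level, the tRNA difference was 1.12 points (adjusted p = 0.0089, Fisher's exact test). How the authors placed reads that match several copies is not stated in the labels, and its part in the result was not tested.

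Small nuclear RNA (snRNA) genes, which include spliceosomal and spliced leader RNAs, showed the opposite order. An snRNA gene was nearest for 8 weaker shared peaks (0.256%) and 27 IDR-thresholded peaks (1.12%, adjusted p = 0.000473, Fisher's exact test). By gene, 5 snRNA genes (3.88% of those annotated) had a weaker shared summit in the promoter and 28 (21.7%) an IDR-thresholded one. The strongest of the few was at the spliced leader gene sls-2.18 on III, with 47.1 and 37.1 in the replicates. For small nucleolar RNA (snoRNA) genes, which guide RNA modification, the nearest-start shares were 1.73% and 2.66% (adjusted p = 0.0628, Fisher's exact test), and 49 of 346 genes (14.2%) and 78 (22.5%) had a summit in the promoter. The strongest weaker shared peak nearest to a snoRNA gene was at K02C4.8 on II, with 46.5 and 56.4.

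Other gene types did not pass the test. MicroRNA genes were nearest to 19 weaker shared peaks and 13 IDR-thresholded peaks, and 21 of 261 (8.05%) and 24 (9.20%) had a promoter summit, 1 gene having both. The strongest was a peak 1052 bp upstream of mir-238 on III, with 43.0 and 52.2. Genes of piRNAs, germline small RNAs of which most are clustered on IV, were nearest to 4.22% of weaker shared and 3.70% of IDR-thresholded peaks. Pseudogenes were nearest to 1.57% and 0.915% (adjusted p = 0.0797), and unclassified ncRNA genes to 18.7% and 21.01% (adjusted p = 0.0797, Fisher's exact tests).

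**Figure D4:**
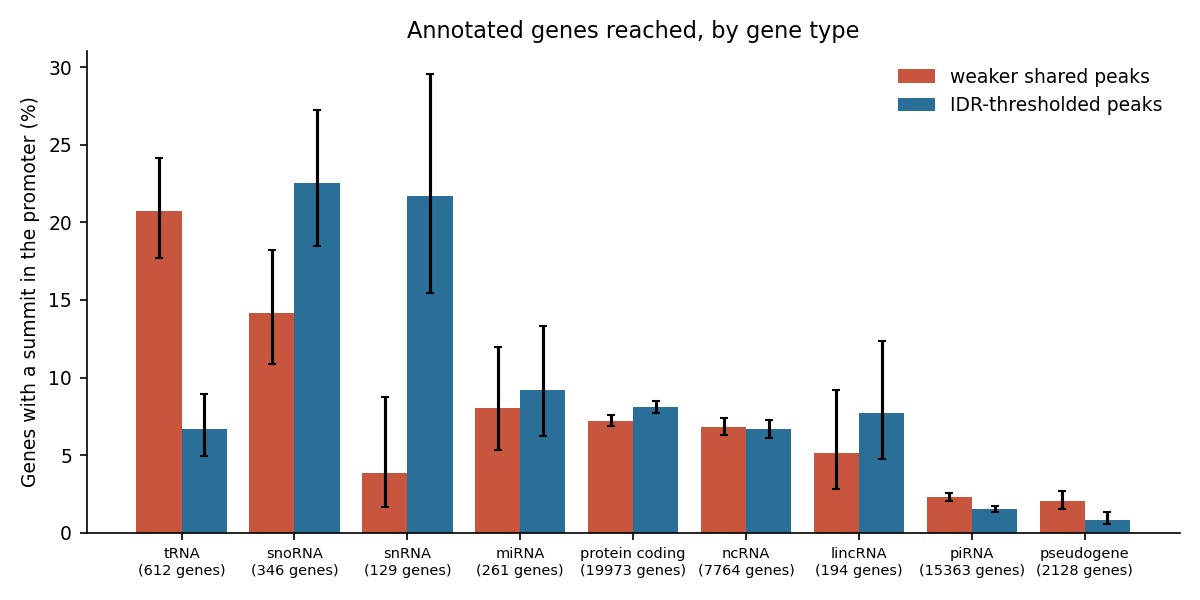
Share of annotated genes of each type (%) with a summit in the promoter, for the weaker shared peaks and the IDR-thresholded peaks, with 95% Wilson intervals. The weaker shared bar is the higher for tRNA genes (20.8% against 6.70%) and the lower for snRNA genes (3.88% against 21.7%).

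Of 19973 protein-coding genes, 1439 (7.2%) had a weaker shared summit in the promoter and 1615 (8.09%) an IDR-thresholded one. The 108 genes with both were 7.51% of the first set and 6.69% of the second, beside 8.09% and 7.2% of all coding genes. A weaker shared peak could not overlap an IDR-thresholded interval, which limits how often both fall in 1 promoter. The distance to the nearest IDR-thresholded summit had a median of 10074 bp, and 5.69% of weaker shared peaks lay within 1000 bp of one.

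The gene lists that follow carry counts and no test. Cytosolic ribosomal protein genes had weaker shared promoter summits in 10 of 83 (12.05%), against IDR-thresholded ones in 52 (62.7%). The strongest weaker shared peaks of this list lay 177 bp upstream of rpl-18, with 55.97 and 34.9 in the replicates, and 280 bp upstream of rpl-4, with 42.9 and 44.3. The rpl-4 summit was nearer to the start of its neighbour B0041.8. Mitochondrial ribosomal protein genes had 9 of 70 (12.9%) against 10 (14.3%), led by mrpl-47 with 48.7 and 46.2. Histone genes had 6 of 50 against 15, and 1 peak between his-1 and his-2, with 44.8 and 37.8, counted for both genes. Proteasome subunits had 5 of 33 (15.2%) against 8 (24.2%), led by rpn-2 with 48.6 and 48.2, and aminoacyl-tRNA synthetases 3 of 32 against 5. In the weaker shared set the 95% Wilson interval of each of these 5 lists covered the 7.2% of all coding genes (for cytosolic ribosomal proteins 6.68% to 20.8%), so none is read as standing apart from it. In the IDR-thresholded set the interval lay above 8.09% for cytosolic ribosomal proteins (51.9% to 72.3%) and histones (19.1% to 43.8%). The same held for proteasome subunits (12.8% to 41.025%).

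UDP-glucuronosyltransferase genes, enzymes that conjugate small molecules, had more weaker shared than IDR-thresholded promoters, with 11 of 67 (16.4%, Wilson interval 9.42% to 27.1%) against 4 (5.97%, interval 2.35% to 14.4%). All coding genes had 7.2% and 8.09%, of which the 7.2% lay below the first interval and the 8.09% inside the second. The strongest were ugt-58 with 35.0 in replicate 1 and 35.7 in replicate 2, ugt-66 with 36.01 and 34.9, and ugt-64 with 32.2 and 37.3. Replicate 2 was the higher at ugt-58 and ugt-64, and replicate 1 at ugt-66. Cytochrome P450 genes had 5 of 74 (6.76%) against 2, and their leading peak, at cyp-13A5, was unequal with 30.7 in replicate 1 and 68.2 in replicate 2. Potassium channel genes had 5 of 65 (7.69%) against none, among them twk-25 with 51.2 and 39.3. The summits counted for twk-13 and kvs-3 lay 11 and 23 bp from tRNA starts, with 84.5% and 80.3% unique 31-base words. The weaker shared P450 and potassium channel shares were near the 7.2% of all coding genes, so neither is read as standing apart from it. C-type lectins had 6 of 237 (2.53%) against 1, F-box genes 3 of 315 (0.952%) against 5, and chemoreceptor genes 14 of 1299 (1.08%) against 8. The last 3 families stayed below the share of all coding genes in both peak sets.

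Among regulators, nuclear hormone receptor genes had 29 of 268 (10.8%) against 34 (12.7%), with 3 in both, beside 7.2% and 8.09% of all coding genes. The strongest weaker shared peaks lay 522 bp upstream of nhr-137 on X, with 43.5 and 54.3, and 128 bp upstream of nhr-61 on II, with 38.5 and 57.3. Replicate 2 was the higher at both. A further weaker shared peak lay in a coding exon of nhr-61, with 51.7 and 29.6. Homeobox genes had 4 of 63 (6.35%) against 3, near the share of all coding genes. Of 16 heterochronic proteins, which time larval cell fates, lin-14 alone had a weaker shared summit in the promoter, 832 bp upstream with 46.2 and 24.1. IDR-thresholded promoter summits were found in 8, lin-14 included. Summits elsewhere in these genes were not counted. Molting regulators had 6 of 29 (20.7%, Wilson interval 9.85% to 38.4%) against 8 (27.6%). The epidermal GATA factor elt-3 (29.4 and 36.8), the receptor nhr-41 (33.04 and 18.5) and myrf-2 (56.1 and 26.2) had promoter peaks of both sets. The Patched-related ptr-18 (52.7 and 31.9), pan-1 (30.2 and 29.0) and the megalin homologue lrp-1 (31.0 and 21.8) had a weaker shared promoter peak. No IDR-thresholded summit lay in the promoters of ptr-18, pan-1 and lrp-1.

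Insulin and starvation signalling genes had 3 of 24 (12.5%, Wilson interval 4.34% to 31.0%) against 4, an interval that also covers the 7.2% of all coding genes. The Raptor homologue daf-15 had signals of 44.7 and 46.1, hlh-30 of 37.4 and 44.2, and the insulin receptor substrate homologue ist-1 of 26.7 and 19.2. Of these, hlh-30 also had an IDR-thresholded promoter peak. None of 39 insulin-like peptide genes had a weaker shared promoter summit, against 1 with an IDR-thresholded one. Cuticle collagen genes had 8 of 156 (5.13%) against 18 (11.5%), led by col-98 on III with 39.8 and 57.9. Hedgehog-related and Patched-related genes had 7 of 83 in each set. Wnt and Notch signalling genes had 4 of 26 against 3, led by the APC-related apr-1 with 41.7 and 46.3. Neuropeptide genes had 5 of 102 in each set, led by nlp-28 with 51.5 and 42.0 and nlp-27 with 31.6 and 54.6.

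Lists of genes typical of a tissue were small, and whole larvae do not show in which cells a site was bound. All coding genes had weaker shared promoter summits in 7.2% and IDR-thresholded ones in 8.09%, and the pan-neuronal (4.17% to 29.96%), muscle (1.85% to 21.3%) and germline (1.58% to 18.6%) intervals of the weaker shared set covered the 7.2%. Weaker shared promoter summits were found in 3 of 25 pan-neuronal genes against 1, with ric-19 at 26.6 and 53.8. They were found in 2 of 30 body wall muscle genes against none, with act-4 at 59.9 and 43.99. Intestinal genes had 1 of 28 against 2, the esterase gene ges-1 with 26.6 and 42.4. Pharyngeal genes had 2 of 16 against 1, and germline genes 2 of 35 against 3. Epidermis and seam genes had 4 of 19 (21.1%, Wilson interval 8.51% to 43.3%) against 6 (31.6%, interval 15.4% to 53.99%). The first interval lay above the 7.2% and the second above the 8.09% of all coding genes. This list of 19 genes was not tested. Synaptic adhesion and axon guidance genes had 2 of 29 against none, the netrin receptor unc-40 with 41.3 and 39.6 and unc-73 with 32.3 and 19.7. Ligand-gated ion channel subunits had 2 of 94 against 1.

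An E-box and a GA repeat were less common at the summits of weaker shared peaks than of IDR-thresholded peaks, and a run of T was more common. Elements were searched on both strands in the same windows, and the extended hexamer TAGGTCA contains the shorter AGGTCA. The receptor hexamer AGGTCA was in 161 weaker shared windows (5.15%) and 157 IDR-thresholded windows (6.53%, adjusted p = 0.0621 over 8 elements, Fisher's exact test), and in 2.42% of windows tiling the genome. The E-box CACGTG, bound by basic helix-loop-helix factors, was in 3.90% and 8.44% (adjusted p = 6.79e-12, Fisher's exact test), beside 1.67% of genome windows. The GA repeat GAGAGAG was in 5.89% and 12.5% (adjusted p = 7.64e-17, Fisher's exact test), beside 1.36%. The run TTTTTTT was in 15.3% and 10.4% (adjusted p = 2.46e-07), beside 21.9% (Fisher's exact test). The windows had a median GC content of 39.6% in weaker shared peaks and 44.6% in IDR-thresholded peaks, and the part of base composition in these differences was not tested. In windows reaching 25 bp to each side the GA repeat difference was -3.17 points and the E-box difference -2.76 points, against -6.63 and -4.54 points in the full windows.

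Within the weaker shared peaks, each summit window was set against windows centred 500 bp to its left and right. McNemar's exact test was run for either flank and the larger p was used. The receptor hexamer was in 5.15% of summit windows and in 2.34% and 2.05% of the flanks (adjusted p = 1.7e-08, exact test). The E-box was in 3.90% against 1.76% and 1.98% (adjusted p = 1.62e-05, exact test), and the GA repeat in 5.89% against 1.92% and 1.66% (adjusted p = 2.53e-15, exact test). The T run was the rarer at the summit, with 15.3% against 21.3% and 21.9% (adjusted p = 3.6e-09, exact test). The FOXO element GTAAACA was in 2.11% against 0.992% and 1.31% (adjusted p = 0.0318, exact test), a call lost under 4 of the alternatives. The extended hexamer, the GATA element and the AP-1 element (TGACTCA) did not pass, with 0.736%, 10.01% and 1.28% of summit windows. Over the 4 bins of rising signal the receptor hexamer was in 3.84%, 4.23%, 6.27% and 6.27% of windows and the E-box in 2.56%, 3.59%, 3.46% and 6.01%. The windows printed above for R09A8.5, with signals of 56.3 and 40.2, for the region near F41C3.2, with 50.7 and 55.9, and for Y38C1AA.1, with 46.3 and 56.0, are the strongest carriers.

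**Figure D5:**
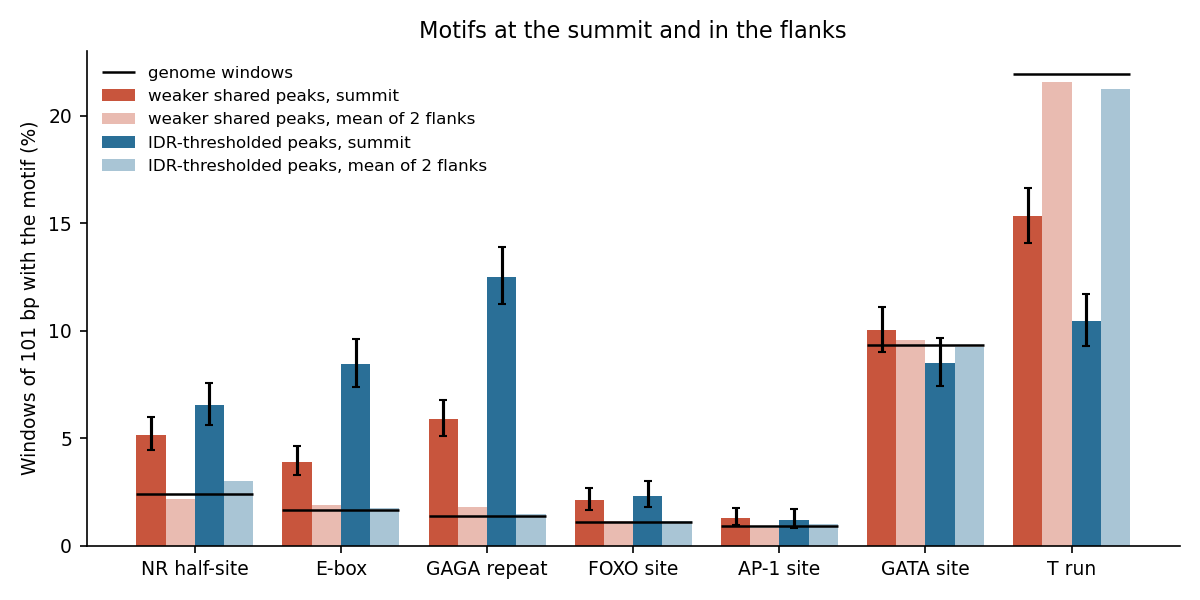
Share of windows (%) reaching 50 bp to each side with each element at the summit (full colour, 95% Wilson interval) and the mean of both flanks (pale), for weaker shared peaks and IDR-thresholded peaks, with the share of genome windows as a black line. NR half-site stands for the receptor hexamer. In the weaker shared peaks this hexamer, the E-box and the GA repeat are above both flanks and the genome line, and the T run is below them.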

How the data were processed

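Peak lists of 2 replicates, of their pooled reads and of the IDR-thresholded set were deposited as narrowPeak tables, called against 1 control alignment, per the files' descriptions. Neither the labels nor the headers name the aligner, the peak caller or its thresholds. The deposited signal is in the caller's units and the deposited −log10 q-value was not used for any test. That value ran between 0.0177 and 2.51 in the weaker shared peaks, with a median of 0.748. In the IDR-thresholded peaks the lowest was 2.50 and the median 3.51. Many weaker shared peaks thus had weak support by the deposited value. No list gives read counts, so depth is unknown, and intervals cover counting error only.

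Lines with the same interval were reduced to the strongest. Overlap meant 1 bp. Genes came from the Ensembl annotation of WBcel235, sequence from RefSeq. Classes, chromosomes, gene types and 8 motifs were compared by two-sided Fisher's exact tests with Benjamini-Hochberg adjustment, differences with 95% Newcombe intervals and shares with Wilson intervals (scipy 1.17.1, statsmodels 0.14.6). The steps were tested on simulated data.

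Members, gene lists and tests were chosen with earlier results of these data known. Of the list names, 5 were not found, and the potassium channel pattern was corrected after seeing that it also matched unrelated egl genes. Named were the strongest peaks overall and by class, chromosome, gene type and list (up to 3), the genes with most peaks, and every gene of the heterochronic, molting and insulin lists with a promoter peak, leaving out 40 kb around nhr-85 and unc-119, where 3 members lay. Alternatives varied the overlap, replicates, summits, promoter, thresholds, motif windows, uniqueness and build.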

Additional observations from a re-analysis of the deposited data

How the results depend on the processing

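Of 554 recomputed values, 515 kept their side of the threshold, counts within 1.5 times. Those that passed also kept their direction, but a change of direction between values that did not pass was included. Needing 1 replicate only gave 3880 to 4791 peaks and 1665 to 2156 coding genes, and 1 peak per 10 kb left 1966. The stronger 1563 peaks reached 885 coding genes. The intron difference was weaker with them (0.490 points) and against the weaker IDR-thresholded peaks (2.27). With exons placed before promoters, non-coding exons turned to -2.68 points (adjusted p = 0.000147, Fisher's exact test). Chromosome differences passed the threshold in ce10, whose lists reach weaker peaks: with the released and archived IDR lists I was 1.85 and 2.32 points, II -2.80 and -3.09, III 2.26 and 1.86, IV 2.36 and 2.12, X -5.10 and -4.75, and V turned to 1.54 with the archived list. With 1 replicate needed, chromosome I was 2.46 to 3.18, X was -2.97 to -2.24, AGGTCA -1.79 to -1.23 and snoRNA genes -0.935 to -0.909. Peaks 500 bp from IDR-thresholded ones gave snoRNA -1.02, AGGTCA -1.61 and TAGGTCA -0.570 points, past the threshold. At 1 peak per 10 kb AGGTCA was -1.73 and TGATAA 2.36. GTAAACA at the summit lost its call with replicate 2 summits (0.704 points), the stronger peaks (0.640) and windows of 25 bp (0.432) or 100 bp (1.23). These causes were not tested. No paired analysis was possible because there was 1 group. Depth, which is unknown, limits how far a weak peak can be told from background.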
